A study of Mus musculus with 6 samples.

Results

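The genes of blood vessels and of the blood-brain barrier were examined in whole cerebellum as a set of 40 named genes, found by symbol among the 24411 genes of the count tables. The set holds 30 genes of endothelium and barrier transport and 10 genes of mural cells, the pericytes and smooth muscle cells that wrap the vessel wall. All 40 had enough reads to be tested. The knockout group (KO) is 3 libraries from mice at postnatal day 18 that lack a remote enhancer of Atoh7, a gene for a proneural transcription factor best known from retinal ganglion cells. The wild-type group (WT) is 3 libraries of the same age without that deletion. Replicates are described as independent, and no source used here states strain, sex, pooling of animals or the way the deletion was made. No Cre driver or promoter is named for it. Under the tissue field the samples are called retina, whereas the design names cerebellum. Gabra6, a receptor subunit of cerebellar granule neurons, had 181 ± 23.8 CPM in KO and 286 ± 48.9 CPM in WT (SD, n = 3 each), where CPM is read counts per 1000000 reads of scaled library size. Crx, a transcription factor of retinal cells, had 0 reads in all libraries, the only 1 of 8 retinal genes for which this held. Of these 8 genes, 3 had enough reads to be tested. The 8 summed to 9.58 ± 0.949 CPM in KO and 9.37 ± 2.32 CPM in WT (SD, n = 3 each).

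Brain endothelium differs from that of most organs. Its cells are sealed by tight junctions, carry few vesicles and no fenestrae, and move nutrients through dedicated carriers while pumping many drugs back into the blood. This state is set up in development by Wnt ligands from neural cells, which act through Frizzled receptors and beta-catenin in the endothelium, and it is maintained together with pericytes. Plvap builds the diaphragms of fenestrae and vesicles, is expressed in immature brain vessels and in vessels outside the barrier, and is normally low where the barrier is mature.

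Atoh7 itself, whose transcribed part is not what was deleted, had 1.17, 1.36 and 2.22 CPM in KO replicates 1 to 3, against 2.09, 1.73 and 1.08 CPM in WT replicates 1 to 3 (log2 fold change −0.18, SE 0.28, edgeR adjusted p = 0.706), so its level in cerebellum does not check the genotype labels. The libraries differed in ways that bear on every value. Reads on genes numbered 32556977 to 34438262 in KO and 16340132 to 28170761 in WT. The ribosomal RNA precursor Rn45s took 63.2% of the gene reads of WT replicate 3, which left 6015125 reads on other genes and as few as 13 on a vessel gene (Higd1b). Reads overlapping no exon on the counted strand, introns among them, were 17.3% ± 0.291 of KO libraries and 34.3% ± 3.59 of WT libraries (SD, n = 3 each; exact permutation test, two-sided, p = 0.1, the lowest value this design can give). WT replicate 1 was the only library with high Xist (31134 reads, at most 10 elsewhere) and 0 reads on 4 Y-linked genes. With Rn45s removed from the counts, 21 vessel genes were lower and 3 higher, as with it. The part of the other differences in the results was not tested, apart from the values given without single libraries.

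Most vessel genes were lower in KO. Of the 40 genes, 21 fell, 3 rose and 16 did not pass the test (edgeR's quasi-likelihood test, Benjamini-Hochberg adjusted p under 0.05 over all 15519 tested genes). The called share was 24 of 40, against 16.7% of all tested genes. The share that fell, 52.5%, compares with 10.2% of all tested genes, and the share that rose, 7.5%, with 6.43%. The median log2 fold change (KO over WT) was −0.44 over the 40 genes and −0.01 over all tested genes. The groups did not overlap in 30 genes (75.0%, against 39.4% of all tested genes). In 26 genes all KO libraries lay below all WT libraries (65.0%, against 20.5% of all tested genes), and in 4 of 40 all lay above (against 18.9%). Lower genes were found in both layers of the vessel wall, 15 of 30 endothelial and barrier genes and 6 of 10 mural genes. Values given below as "at", or in parentheses with only an SE, are log2 fold changes. In whole tissue, fewer vessel cells and less RNA per vessel cell cannot be told apart. No called gene changed sign when any 1 library was left out, and 11 of the 24 called genes passed the test in all 13 alternative analyses (Cldn5, Pecam1, Cdh5, Esam, Plvap, Slco1a4, Slco1c1, Mfsd2a, Itm2a, Rgs5 and Vtn). Without KO replicate 1, 2 or 3, 12, 12 and 9 genes were lower. Without the Rn45s-rich WT replicate 3, 22 were lower and 3 were higher.

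**Figure D1:**
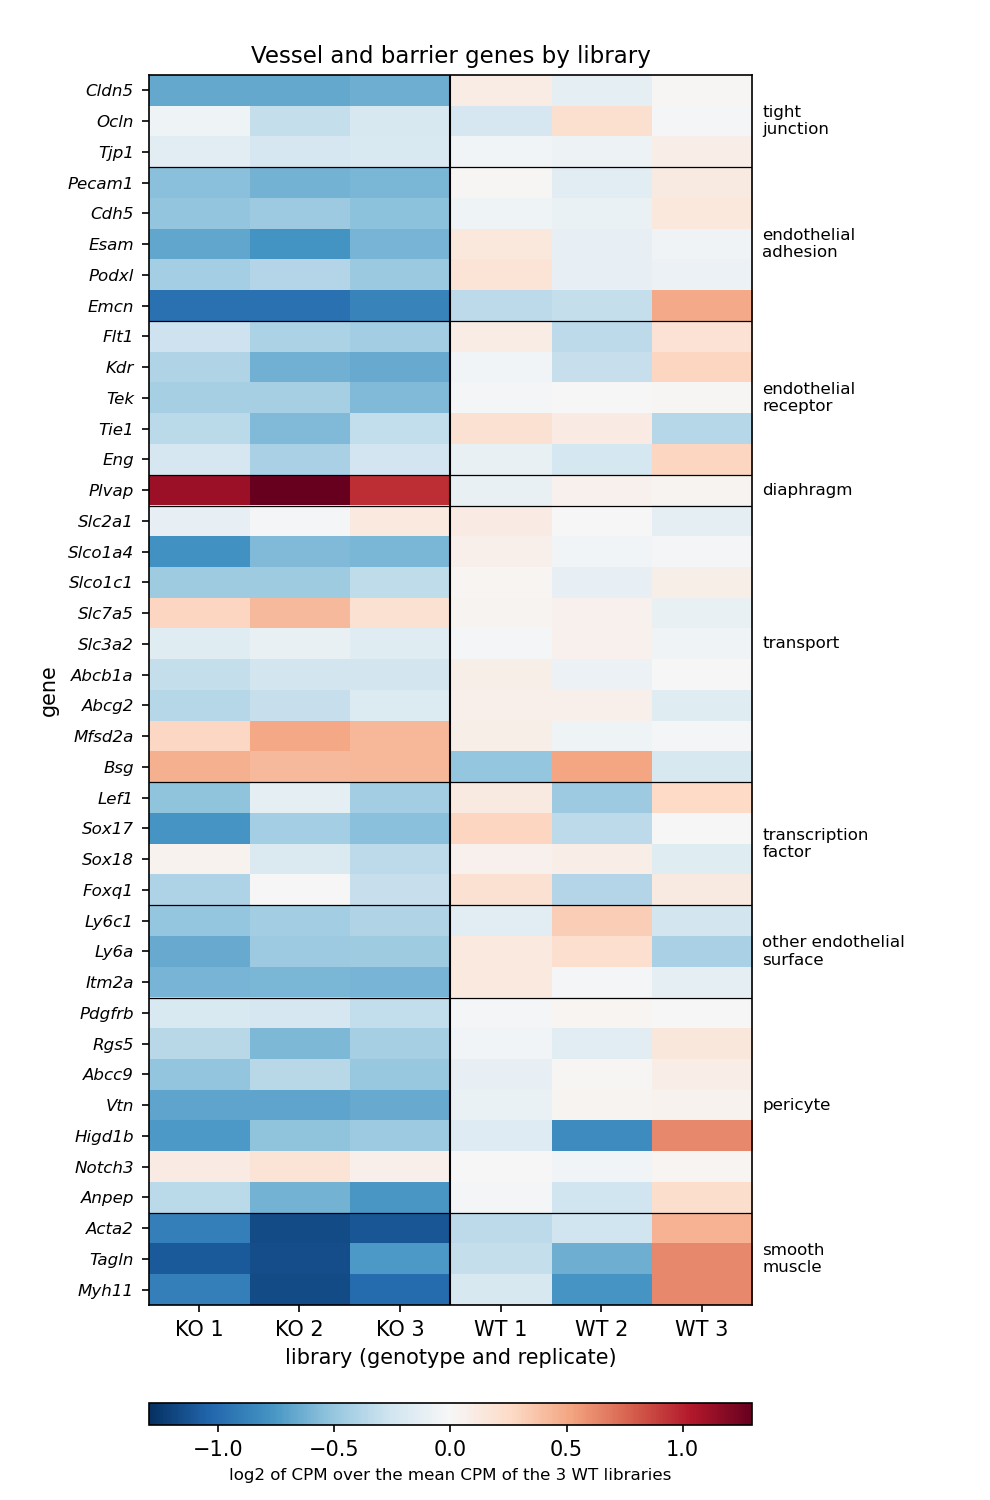
Each row is a vessel or barrier gene, each column a library, and the colour is log2 of the library's CPM over the mean of the 3 WT libraries (blue lower, red higher). In 26 rows all KO libraries lie below all WT libraries, Plvap stands out as red in KO, and WT replicate 3 is the highest library for the smooth muscle genes.

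**Figure D2:**
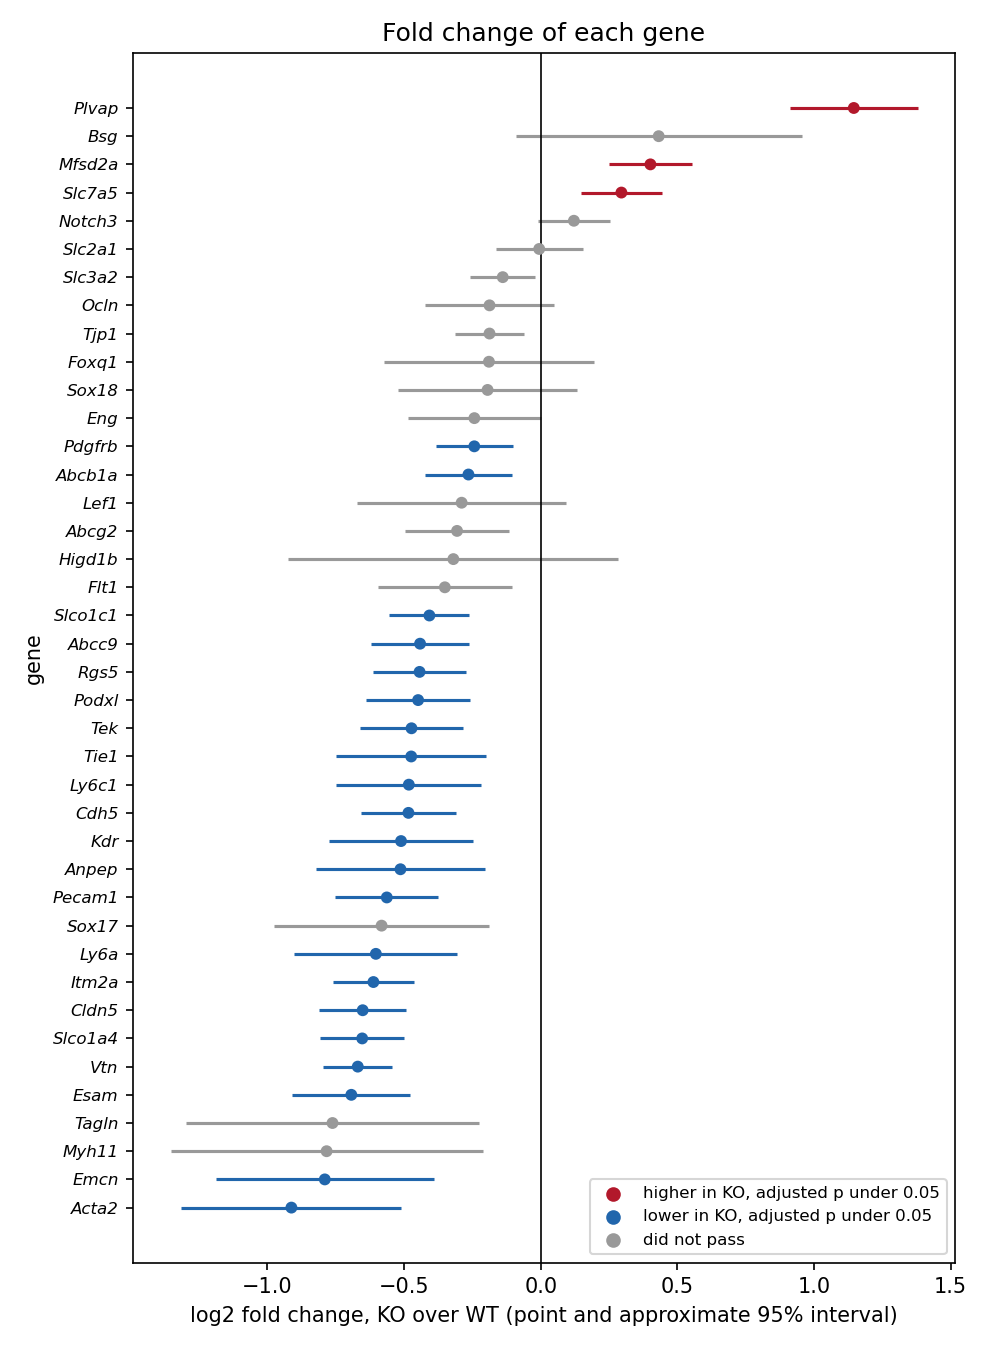
Points are log2 fold changes of KO over WT for each gene with approximate 95% intervals, coloured by the edgeR call. The 21 lower genes lie between −0.91 (Acta2) and −0.24 (Pdgfrb), and the 3 higher genes are Plvap, Mfsd2a and Slc7a5.

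Among tight junction genes, Cldn5 fell and its partners did not pass the test. Cldn5, the main claudin of brain endothelium (chromosome 16, 18776847 to 18778262, GRCm38), had 16.3, 16.3 and 16.7 CPM in KO replicates 1 to 3, against 27.6, 23.9 and 26.0 CPM in WT replicates 1 to 3. The KO libraries were nearly equal, and the highest of them lay well under the lowest WT library. The level fell by 0.65 on the log2 scale (SE 0.08; adjusted p = 0.000720), with 16.4 ± 0.215 CPM in KO and 25.8 ± 1.86 CPM in WT (SD, n = 3 each). Ocln, a transmembrane tight junction protein, was at −0.19 (SE 0.12, adjusted p = 0.310) with overlapping groups. Tjp1, the junctional scaffold ZO-1, was at −0.19 (SE 0.06, adjusted p = 0.0689), with all KO libraries below all WT libraries. Tjp1 and Ocln are also made by epithelia and, for Tjp1, by many other cells of the brain, whereas Cldn5 is largely endothelial there.

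All 5 adhesion and surface glycoprotein genes of endothelium fell, with no overlap between the groups. Over all tested genes, 10.2% fell, and 20.5% had all KO libraries below all WT libraries. Pecam1, an adhesion receptor at endothelial contacts, had 9.54, 9.09 and 9.21 CPM in KO replicates 1 to 3, against 14.1, 12.6 and 15.0 CPM in WT replicates 1 to 3 (log2 fold change −0.56, SE 0.10, adjusted p = 0.00392). Cdh5, the cadherin of endothelial adherens junctions, had 11.96, 12.3 and 11.8 CPM in KO replicates 1 to 3, against 16.5, 16.1 and 18.8 CPM in WT replicates 1 to 3 (log2 fold change −0.48, SE 0.09, adjusted p = 0.00559). Esam, an endothelial adhesion molecule of the immunoglobulin family, had 6.61, 6.16 and 6.92 CPM in KO replicates 1 to 3, against 11.6, 9.81 and 10.2 CPM in WT replicates 1 to 3 (log2 fold change −0.69, SE 0.11, adjusted p = 0.00272). As fitted ratios of KO over WT these were 0.677 for Pecam1, 0.715 for Cdh5 and 0.619 for Esam. Podxl, a sialomucin of the vessel lumen, had 13.1, 13.7 and 12.8 CPM in KO replicates 1 to 3, against 20.1, 16.5 and 16.9 CPM in WT replicates 1 to 3 (log2 fold change −0.45, SE 0.10, adjusted p = 0.0127). Emcn, a sialomucin of veins and capillaries, had 2.26, 2.25 and 2.41 CPM in KO replicates 1 to 3, against 3.48, 3.56 and 6.20 CPM in WT replicates 1 to 3 (log2 fold change −0.79, SE 0.20, adjusted p = 0.0263). Emcn was a gene of few reads, and WT replicate 3 was far above the other WT libraries: without it the log2 fold change was −0.61 (adjusted p = 0.0146). The call of Podxl was lost without WT replicate 1 or KO replicate 1 or 3, and that of Emcn without any 1 KO replicate.

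Upstream sequence is shown for 4 of the genes that fell in every alternative analysis and for Mfsd2a, which rose in each. Genes with opposite directions can thus be read side by side. The windows are the 250 bases before the RefSeq start on GRCm38.p6, given 5′ to 3′ on the gene's strand. Capitals mark the ETS core AGGAAG, the SOX core AACAAT or the TCF/LEF core CTTTGA on either strand; ETS, SOX and TCF/LEF are families of transcription factors active in endothelium, and matches of different motifs do not overlap in these windows.
Cldn5, chr16:18776597-18776846, plus strand: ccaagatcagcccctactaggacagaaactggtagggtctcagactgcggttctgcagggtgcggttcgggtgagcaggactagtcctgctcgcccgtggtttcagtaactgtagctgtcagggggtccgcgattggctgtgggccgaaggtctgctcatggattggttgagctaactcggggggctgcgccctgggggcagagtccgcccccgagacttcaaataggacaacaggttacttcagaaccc
Slco1a4, chr6:141856221-141856470, minus strand: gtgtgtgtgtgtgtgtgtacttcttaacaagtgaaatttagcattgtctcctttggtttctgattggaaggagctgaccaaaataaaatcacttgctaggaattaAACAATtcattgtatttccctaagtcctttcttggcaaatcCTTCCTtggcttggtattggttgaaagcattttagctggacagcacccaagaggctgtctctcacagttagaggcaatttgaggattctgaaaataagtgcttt
Slco1c1, chr6:141524104-141524353, plus strand: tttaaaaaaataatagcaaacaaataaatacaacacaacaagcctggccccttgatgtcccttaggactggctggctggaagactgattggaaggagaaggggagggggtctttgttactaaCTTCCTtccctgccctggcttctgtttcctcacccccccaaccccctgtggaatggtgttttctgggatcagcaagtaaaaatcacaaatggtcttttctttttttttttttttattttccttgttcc
Rgs5, chr1:169655251-169655500, plus strand: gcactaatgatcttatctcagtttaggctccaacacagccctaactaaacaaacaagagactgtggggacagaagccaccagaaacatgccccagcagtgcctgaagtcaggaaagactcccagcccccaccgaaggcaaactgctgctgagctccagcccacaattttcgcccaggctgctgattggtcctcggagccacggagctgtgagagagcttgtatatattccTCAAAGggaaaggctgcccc
Mfsd2a, chr4:122961189-122961438, minus strand: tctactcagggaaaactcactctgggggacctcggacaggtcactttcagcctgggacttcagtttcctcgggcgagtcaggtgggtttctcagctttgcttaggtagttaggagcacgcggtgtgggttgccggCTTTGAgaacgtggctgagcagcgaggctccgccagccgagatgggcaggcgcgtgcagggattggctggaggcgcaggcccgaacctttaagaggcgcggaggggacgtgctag
The ETS core occurs once each upstream of Slco1a4 and Slco1c1, and the SOX core once upstream of Slco1a4. The TCF/LEF core occurs once each upstream of Rgs5 and Mfsd2a, while the Cldn5 window holds none of the 3. Itm2a and Vtn also fell in every alternative and had a single window, but theirs are not printed. The Itm2a window holds the ETS core at 2 places and neither other core, and the Vtn window holds none of the 3. Of 21 vessel genes with a single window in the table, 8 held the ETS core (38.1%, against 29.5% of all 32851 windows), 3 the SOX core (14.3%, against 9.42%) and 4 the TCF/LEF core (19.0%, against 13.8%). The GC box GGGCGG was in 10 of the 21 (47.6%, against 32.7%). The share over all windows includes genes with more than 1 window, so it is not of a like set. For 17 of the 21 windows, the bases after the start lay near the start of a GENCODE transcript. A match of so few letters is a description of the window and marks no binding site.

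Of the 5 growth factor receptor genes of endothelium, 3 fell. Kdr, the main signalling receptor for VEGF, had 18.1, 15.4 and 15.0 CPM in KO replicates 1 to 3, against 23.1, 19.3 and 28.8 CPM in WT replicates 1 to 3 (log2 fold change −0.51, SE 0.13, adjusted p = 0.0294). Tek, the angiopoietin receptor Tie2, had 8.30, 8.30 and 7.50 CPM in KO replicates 1 to 3, against 11.01, 11.2 and 11.3 CPM in WT replicates 1 to 3 (log2 fold change −0.47, SE 0.10, adjusted p = 0.00947). The WT libraries of Tek had an SD of 0.155 CPM (n = 3), and every KO library lay below them. Tie1, its partner receptor without a well-defined ligand of its own, had 6.46, 5.50 and 6.58 CPM in KO replicates 1 to 3, against 9.44, 8.85 and 6.35 CPM in WT replicates 1 to 3 (log2 fold change −0.47, SE 0.14, adjusted p = 0.0435). Tie1 is the only called gene whose groups overlapped, since WT replicate 3 was within the KO range. Flt1, a VEGF receptor that also acts as a decoy, was at −0.35 (adjusted p = 0.0818), and Eng, a co-receptor for TGF-beta family ligands, at −0.24 (adjusted p = 0.203); neither passed and both had overlapping groups. The calls were sensitive to single libraries: 3 receptors were lower with all libraries, 0 without KO replicate 3, and 1 without KO replicate 2 or WT replicate 1.

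All 3 other endothelial surface genes fell. Itm2a, a membrane protein enriched in brain endothelium, had 27.7, 27.8 and 27.6 CPM in KO replicates 1 to 3, against 45.9, 41.7 and 38.4 CPM in WT replicates 1 to 3. The KO libraries were again nearly equal and stood apart from WT (log2 fold change −0.61, SE 0.08, adjusted p = 0.000720). Itm2a lies on chromosome X, and without WT replicate 1, the library with high Xist, its log2 fold change was −0.54 (adjusted p = 0.00212). Ly6c1, a surface protein of brain capillaries, had 9.67, 10.1 and 10.5 CPM in KO replicates 1 to 3, against 12.4, 17.1 and 11.6 CPM in WT replicates 1 to 3 (log2 fold change −0.48, SE 0.14, adjusted p = 0.0364), and Ly6a, the stem cell antigen Sca-1 that also marks endothelium, had 3.55, 4.04 and 4.05 CPM in KO replicates 1 to 3, against 6.10, 6.50 and 4.18 CPM in WT replicates 1 to 3 (log2 fold change −0.60, SE 0.15, adjusted p = 0.0242). Reads of these 2 genes are uncertain, because 32.8% of the 50-base windows of Ly6c1 transcripts and 19.0% of those of Ly6a also occur in transcripts of other genes, most often Ly6c2 for Ly6c1 and Ly6c1 for Ly6a. Both lost their call without any 1 KO replicate or WT replicate 2, and Ly6a also without WT replicate 1. Without WT replicate 2, its highest library, Ly6c1 was at −0.27 (adjusted p = 0.169).

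The 4 transcription factor genes were low and did not pass the test. Lef1, a nuclear effector of Wnt signalling, had 3.35, 4.39 and 3.52 CPM in KO replicates 1 to 3, against 5.20, 3.47 and 5.73 CPM in WT replicates 1 to 3; the groups overlapped (log2 fold change −0.29, SE 0.20, adjusted p = 0.335; 95% interval −0.67 to 0.09). Sox17, an endothelial factor of arteries and of the barrier, was at −0.58 (adjusted p = 0.0729) with all KO libraries below all WT libraries. Sox18, a related endothelial factor, was at −0.19, and Foxq1, a forkhead factor enriched in brain endothelium, at −0.19. Sox17 was the 1 gene of the 4 with an unadjusted p under 0.05. DESeq2 and limma-voom each called 0 of the 4, and without WT replicate 2 Sox17 passed. The 95% intervals of Sox17 (−0.98 to −0.19) and Lef1 include a fall as large as that of Cldn5, while those of Sox18 (−0.52 to 0.13) and Foxq1 (−0.57 to 0.19) do not.

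Transporters did not move as one. Of the 9 genes, 3 fell, 2 rose and 4 did not pass. Slco1a4, a carrier of organic anions in brain endothelium (chromosome 6, 141805440 to 141856199), had 24.5, 28.3 and 28.0 CPM in KO replicates 1 to 3, against 44.1, 41.3 and 41.4 CPM in WT replicates 1 to 3 (log2 fold change −0.65, SE 0.08, adjusted p = 0.000568). Slco1c1, the thyroxine carrier of barrier endothelium and astroglia, had 31.9, 32.1 and 35.1 CPM in KO replicates 1 to 3, against 44.8, 40.9 and 46.3 CPM in WT replicates 1 to 3 (log2 fold change −0.41, SE 0.07, adjusted p = 0.00581). Both sit on chromosome 6, and neither had overlapping groups. Abcb1a, the drug efflux pump P-glycoprotein, had 15.1, 15.8 and 15.8 CPM in KO replicates 1 to 3, against 19.7, 17.8 and 18.6 CPM in WT replicates 1 to 3 (log2 fold change −0.26, SE 0.08, adjusted p = 0.0491). Its fall was small, lost its call in 10 of 13 alternatives, and rests on a gene of which 17.6% of 50-base windows occur in other transcripts, mostly of Abcb1b. Abcg2, another efflux pump, was at −0.31 (adjusted p = 0.0558), without overlap of the groups.

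Both transporters that rose carry nutrients. Mfsd2a, which carries lysophosphatidylcholine with omega-3 fatty acids and restrains vesicle transport across the endothelium (chromosome 4, 122946850 to 122961188), had 48.9, 57.4 and 54.6 CPM in KO replicates 1 to 3, against 42.8, 39.0 and 39.8 CPM in WT replicates 1 to 3 (log2 fold change 0.40, SE 0.08, adjusted p = 0.00754). Slc7a5, the light chain of the large neutral amino acid carrier LAT1, had 68.8, 75.7 and 65.2 CPM in KO replicates 1 to 3, against 58.0, 58.9 and 53.0 CPM in WT replicates 1 to 3 (log2 fold change 0.30, SE 0.08, adjusted p = 0.0249). Each KO library was above each WT library for both genes, though Slc7a5 lost its call without KO replicate 1 or 2 or WT replicate 2. Slc3a2, the heavy chain that brings Slc7a5 to the membrane, was at −0.14 (SE 0.06, adjusted p = 0.141), with all KO libraries below all WT libraries. Slc2a1, the glucose carrier GLUT1, had 65.1, 69.2 and 76.7 CPM in KO replicates 1 to 3, against 75.7, 70.1 and 64.9 CPM in WT replicates 1 to 3. The groups overlapped, with 70.3 ± 5.87 CPM in KO and 70.2 ± 5.36 CPM in WT (SD, n = 3 each). Its log2 fold change, −0.01, had a 95% interval of −0.16 to 0.15, which does not reach the fall of Cldn5, and its sign turned in 7 of 13 alternatives. Bsg, the chaperone basigin of monocarboxylate carriers, had 342, 334 and 335 CPM in KO replicates 1 to 3, against 176, 355 and 215 CPM in WT replicates 1 to 3. The WT libraries of Bsg differed from each other by more than the KO and WT means did (log2 fold change 0.43, SE 0.27, adjusted p = 0.328), and without WT replicate 2 the value was 0.79 (adjusted p = 0.00145). Slc2a1, Slc7a5, Slc3a2 and Bsg are also expressed by glia or neurons, so their levels in whole cerebellum are not those of endothelium alone.

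**Figure D3:**
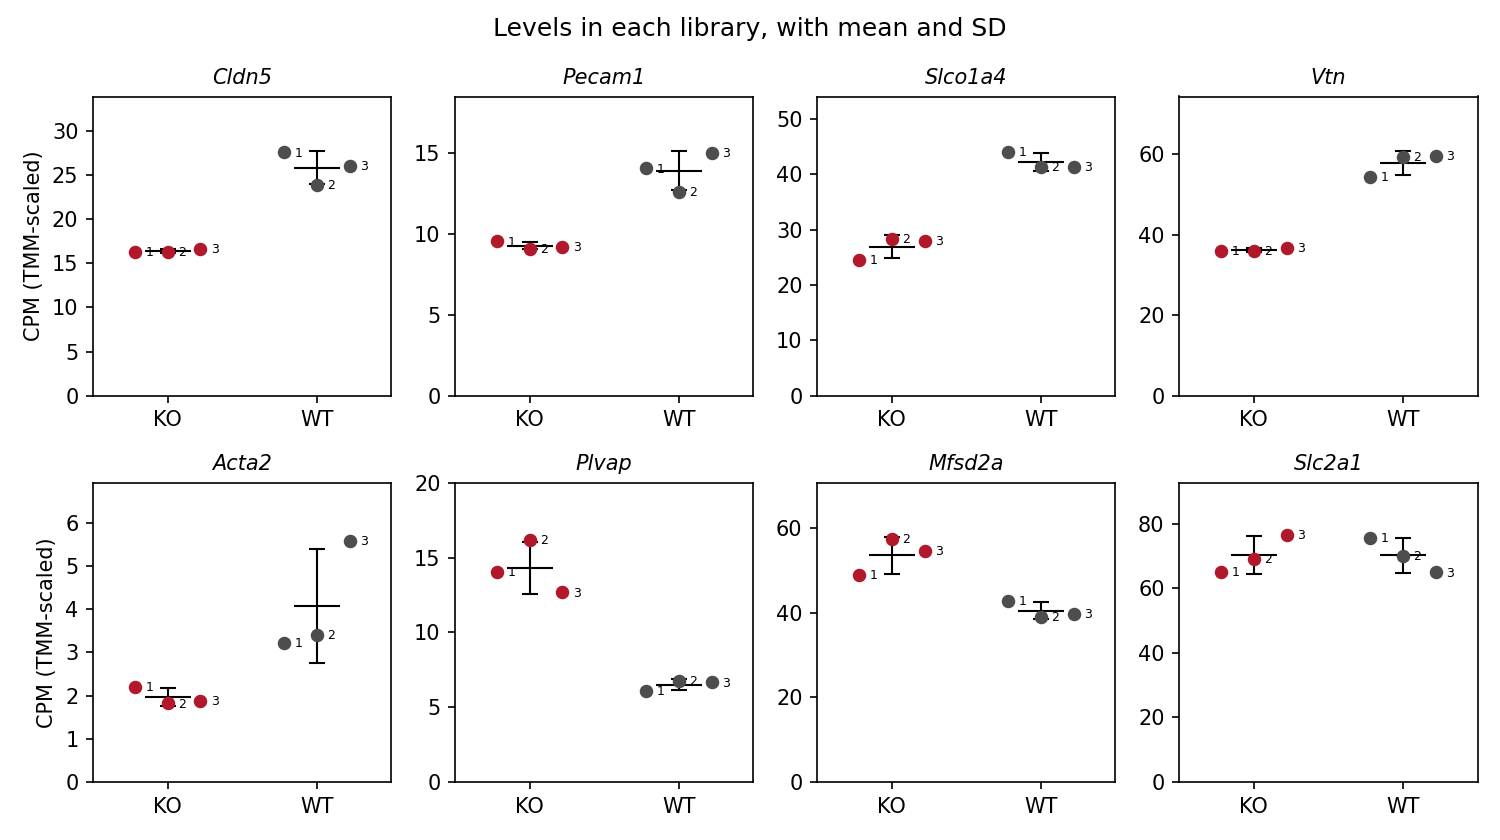
Points are TMM-scaled CPM in each library, labelled by replicate number, with bars for the mean and SD of 3 libraries per genotype. Cldn5, Pecam1, Slco1a4, Vtn and Acta2 are lower in KO without overlap, Plvap and Mfsd2a are higher without overlap, and the Slc2a1 groups overlap.

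Plvap showed the largest fold change of the set and rose, while Cldn5, Pecam1 and Cdh5 fell. The gene (chromosome 8, 71497765 to 71511752) had 542, 641 and 526 reads in KO replicates 1 to 3, against 209, 219 and 43 reads in WT replicates 1 to 3. Scaled for library size these were 14.1, 16.2 and 12.7 CPM in KO replicates 1 to 3, against 6.07, 6.78 and 6.66 CPM in WT replicates 1 to 3. Even the lowest KO library lay far above the highest WT library. The level rose 2.21-fold (log2 1.15, SE 0.12; adjusted p = 0.000254) and stayed between 1.05 and 1.23 on the log2 scale with any 1 library left out. Of its reads, 1.31% lay on the opposite strand. Cdh5 and Slc7a5, on the same chromosome, changed by −0.48 and 0.30.

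Ratios of genes within a library do not depend on how libraries are scaled. Per kilobase of exon, the ratio of Plvap to Cldn5 was 0.614, 0.707 and 0.542 in KO replicates 1 to 3, against 0.157, 0.202 and 0.182 in WT replicates 1 to 3. The ratio of Mfsd2a to Cldn5 was 1.89, 2.22 and 2.06 in KO replicates 1 to 3, against 0.977, 1.03 and 0.963 in WT replicates 1 to 3. Both ratios were higher in each KO library than in any WT library. The ratios of mural genes to Cldn5 differed by gene. Vtn over Cldn5 was 1.53, 1.54 and 1.53 in KO replicates 1 to 3, against 1.37, 1.73 and 1.59 in WT replicates 1 to 3, with KO values inside the WT range. Pdgfrb over Cldn5 was 0.389, 0.385 and 0.3504 in KO replicates 1 to 3, against 0.259, 0.311 and 0.280 in WT replicates 1 to 3, with every KO library above every WT library. Slc2a1 over Cldn5 was 1.61, 1.71 and 1.86 in KO replicates 1 to 3, against 1.11, 1.18 and 1.01 in WT replicates 1 to 3, also without overlap. For the chains of LAT1, Slc7a5 over Slc3a2 was 0.770, 0.813 and 0.728 in KO replicates 1 to 3, against 0.586, 0.568 and 0.551 in WT replicates 1 to 3, and these groups did not overlap either. These pairs were chosen after their values were seen, and no test was made of the ratios.

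**Figure D4:**
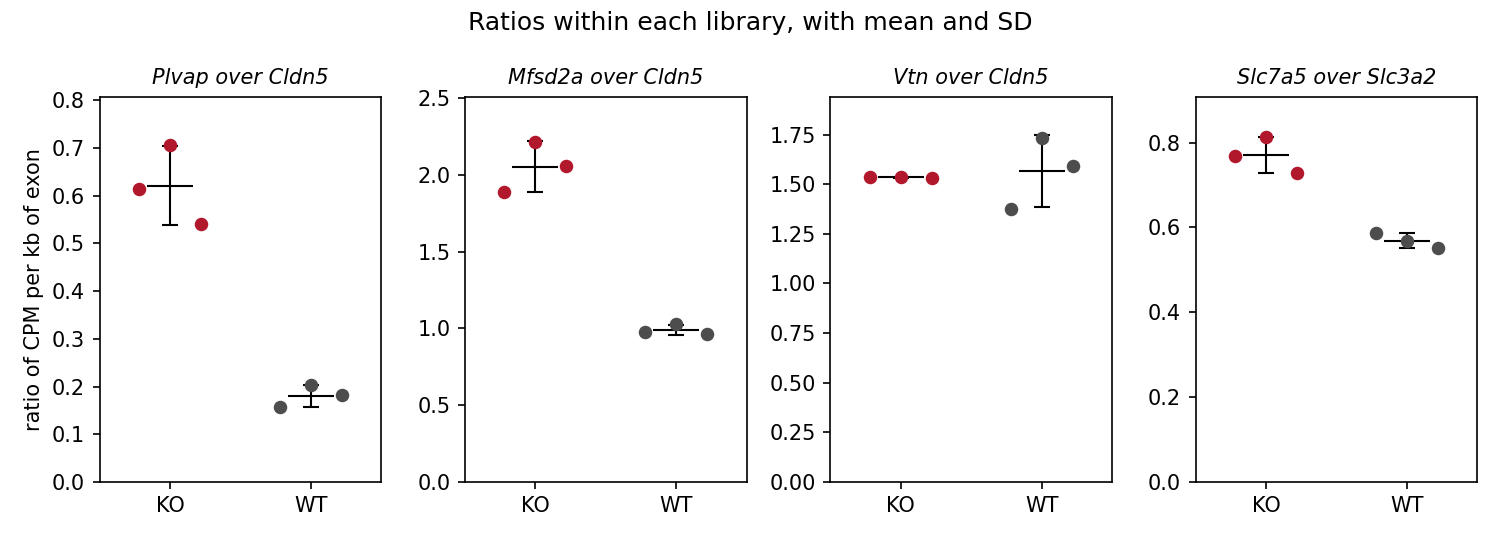
Each point is the ratio of 2 genes' CPM per kilobase of exon within a library, with bars for the mean and SD of 3 libraries per genotype. Plvap and Mfsd2a are higher relative to Cldn5 in every KO library, Slc7a5 is higher relative to Slc3a2, and the ratio of Vtn to Cldn5 overlaps between the genotypes.

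Of 7 pericyte genes, 5 fell and 2 did not pass; 2 were lower without KO replicate 1, KO replicate 3 or WT replicate 2, and 3 without KO replicate 2 or WT replicate 1. Vtn, the adhesion protein vitronectin that brain pericytes secrete (chromosome 11, 78499091 to 78502324), had 35.9, 36.0 and 36.7 CPM in KO replicates 1 to 3, against 54.3, 59.3 and 59.5 CPM in WT replicates 1 to 3 (log2 fold change −0.67, SE 0.06, adjusted p = 0.000158). This was the smallest p of the 40 genes. Rgs5, a regulator of G-protein signalling in pericytes, had 44.4, 38.0 and 42.2 CPM in KO replicates 1 to 3, against 55.7, 52.0 and 63.2 CPM in WT replicates 1 to 3 (log2 fold change −0.44, SE 0.09, adjusted p = 0.00789). Abcc9, the SUR2 subunit of potassium channels in pericytes, had 11.05, 12.3 and 11.2 CPM in KO replicates 1 to 3, against 14.7, 16.0 and 16.7 CPM in WT replicates 1 to 3 (log2 fold change −0.44, SE 0.09, adjusted p = 0.0106). In none of these 3 genes did the groups overlap, but Abcc9 lost its call without KO replicate 1, KO replicate 3 or WT replicate 2. Pdgfrb, the receptor that recruits pericytes to vessels, had 24.6, 24.3 and 22.6 CPM in KO replicates 1 to 3, against 27.6, 28.7 and 28.2 CPM in WT replicates 1 to 3, a fall of 0.24 on the log2 scale (SE 0.07; adjusted p = 0.0435). Anpep, the aminopeptidase CD13, had 4.98, 4.14 and 3.76 CPM in KO replicates 1 to 3, against 6.30, 5.32 and 7.44 CPM in WT replicates 1 to 3 (log2 fold change −0.51, SE 0.16, adjusted p = 0.0494). Pdgfrb and Anpep were close to the threshold and lost their calls in 8 and 9 of 13 alternatives, among them DESeq2. Higd1b, a pericyte-enriched gene at 24 to 40 reads in the libraries other than WT replicate 3, was at −0.32 with overlapping groups (adjusted p = 0.510). Notch3, the Notch receptor of mural cells, was at 0.12 (SE 0.07, adjusted p = 0.238); its KO libraries lay above its WT libraries, and its 95% interval (−0.01 to 0.25) does not reach the falls of Vtn or Rgs5.

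Smooth muscle genes were low in CPM, and 1 of the 3 fell. Acta2, smooth muscle actin, had 2.20, 1.82 and 1.88 CPM in KO replicates 1 to 3, against 3.22, 3.40 and 5.58 CPM in WT replicates 1 to 3 (log2 fold change −0.91, SE 0.21, adjusted p = 0.0151). All KO libraries were below all WT libraries, and WT replicate 3 was the highest. Without WT replicate 3 the log2 fold change of Acta2 was −0.75 (adjusted p = 0.00766), and the call was lost without KO replicate 2 or 3. Tagln, the actin-binding protein transgelin, was at −0.76 (adjusted p = 0.0830) and Myh11, smooth muscle myosin, at −0.78 (adjusted p = 0.0910), neither with overlap. Without WT replicate 3 these values were −0.52 and −0.56. Of the reads at Tagln, 41.3% lay on the opposite strand, the highest share of the 40 genes, whose median was 0.292%.

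Per kilobase of exon the level was highest for Bsg, 186 in KO and 137 in WT (mean CPM per kb), followed in KO by Slc3a2 (24.4 in KO and 26.9 in WT), Mfsd2a (23.8 in KO and 18.02 in WT) and Slc2a1 (20.1 in KO and 20.0 in WT). In WT the order after Bsg was Vtn (17.8 in KO and 28.4 in WT), Slc3a2 and Itm2a (15.9 in KO and 24.1 in WT), so the genotypes differ in which genes stand near the top. The lowest was Myh11 (0.151 in KO and 0.304 in WT). The 40 genes lie on 18 chromosomes, with 5 on chromosome 6 and 1, Bsg, on chromosome 10, the chromosome of Atoh7.

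The vessel's basement membrane, to which both cell layers contribute, was represented by 12 genes. Which cells of the whole tissue their reads came from was not tested. By the test 6 of the 12 were lower and 0 higher, against 10.2% lower and 6.43% higher over all tested genes. All 12 log2 fold changes were below 0 (median −0.30). Lama4, the laminin chain of endothelium, had 9.47, 9.04 and 9.84 CPM in KO replicates 1 to 3, against 16.1, 16.1 and 18.9 CPM in WT replicates 1 to 3 (log2 fold change −0.82, SE 0.10, adjusted p = 0.000445). Lama2 (−0.35, SE 0.07) and Lamb1 (−0.44, SE 0.10), further laminin chains, and Col4a1 (−0.72, SE 0.15), a chain of type IV collagen, were the next by p. Without KO replicate 3, 1 of the 12 was lower, and without KO replicate 2, 2 were.

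Genes of arteries, veins and sprouting tips had 6 of 21 tested genes lower and 0 higher (median −0.26). Aplnr, the apelin receptor of veins (−0.70, SE 0.12), Cd34, a sialomucin of capillaries (−0.56, SE 0.11), Fli1, an ETS factor (−0.54, SE 0.12), and Clec14a, an endothelial lectin (−0.69, SE 0.18), were among those that fell. Without KO replicate 1, 2 or 3, 1, 2 and 2 genes were lower, and without WT replicate 1, 3 were. Erg, another ETS factor of endothelium, was at 0.37 (adjusted p = 0.122). For the 16 other junction and caveola genes (median −0.12) and the 18 further transporters (median −0.16), the called shares were near those over all tested genes, 10.2% lower and 6.43% higher. Among the junction and caveola genes 2 fell, 1 rose and 13 did not pass: Lsr, which organises junctions where 3 cells meet (−0.53, SE 0.14), and Cav1, the coat protein of caveolae (−0.36, SE 0.10), fell, and Cldn12 (0.21, SE 0.06) rose. None of these 3 was called without any 1 KO replicate or WT replicate 1. Among the transporters 2 fell, 2 rose and 14 did not pass. Slc16a4 (−0.87, SE 0.20) and Slc38a5 (−0.62, SE 0.18) fell, and the taurine carrier Slc6a6 (0.39, SE 0.07) and the cationic amino acid carrier Slc7a1 (0.26, SE 0.07) rose. Slc6a6 alone of these 4 was called in every alternative; without KO replicate 1 or 2, 0 of the 18 were lower and 1 was higher.

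Of 16 genes of the Wnt signal that instructs the barrier, 1 was lower and 1 higher (median −0.01), shares near those over all tested genes (10.2% lower and 6.43% higher). Reck, the co-receptor that with Adgra2 recognises Wnt7 ligands, had 6.48, 6.49 and 6.22 CPM in KO replicates 1 to 3, against 10.2, 9.16 and 12.6 CPM in WT replicates 1 to 3 (log2 fold change −0.68, SE 0.12, adjusted p = 0.00498). Wnt7b, one of those ligands, was higher (0.36, SE 0.11; adjusted p = 0.0486), a call lost without any 1 KO replicate or WT replicate 2. Wnt7a (0.06), Adgra2 (0.03), Fzd4 (0.10) and the target gene Axin2 (−0.21) did not pass. Of 10 VEGF and angiopoietin ligands and co-receptors, edgeR called 0 (DESeq2 also 0, limma-voom 1 lower and 1 higher; 4 had an unadjusted edgeR p under 0.05), with Vegfa at −0.22 (adjusted p = 0.0933) and Angpt2 at −0.48 (adjusted p = 0.0939). Of the 10 VEGF and angiopoietin genes, 7 were below 0 and 3 above (median −0.21). Of 14 genes of PDGF, TGF-beta and Notch signals (median −0.04), 1 fell and 13 did not pass. The share that fell was not above the 10.2% of all tested genes. The gene that fell was the endothelial receptor Acvrl1 (−0.44, SE 0.12), not called without any 1 KO replicate or WT replicate 1 or 2. Pdgfb, the ligand of Pdgfrb, was at −0.11.

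**Figure D5:**
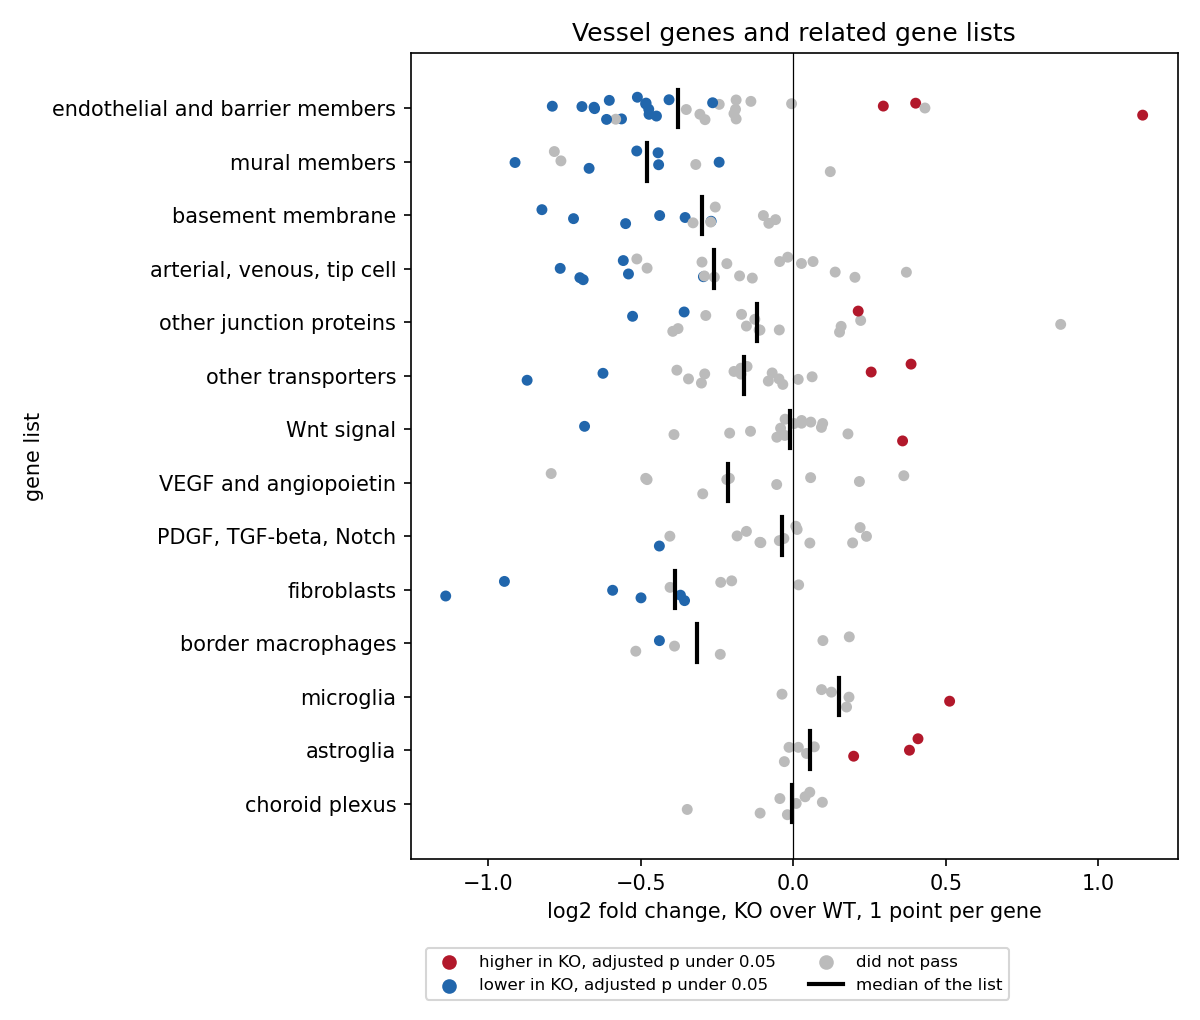
Each point is a gene's log2 fold change of KO over WT, coloured by the edgeR call, and the black bar is the median of the list. The vessel genes, basement membrane and fibroblast lists lie mostly left of 0, the Wnt and choroid plexus lists centre near 0, and microglia and astroglia lie mostly to the right. The granule neuron, Purkinje cell, blood and retina lists are not drawn.

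Markers of other cells moved with the vessel genes in part. Over all tested genes, 10.2% were lower and 6.43% higher, and 1 call in a list of 6 does not show a change of that cell type. Fibroblasts of meninges and perivascular spaces had 6 of 10 genes lower and 0 higher (median −0.39), among them Col3a1, a fibrillar collagen (−0.95, SE 0.13), and Ogn, a matrix proteoglycan (−0.50, SE 0.09). Their summed level was 292, 291 and 290.3 CPM in KO replicates 1 to 3, against 366, 425 and 512 CPM in WT replicates 1 to 3, with no member at 0 in all libraries. Without WT replicate 2 or any 1 KO replicate, 3 were lower. Border macrophages had 1 of 6 lower (Mrc1, −0.44, SE 0.13; not called without any 1 KO replicate or WT replicate 1) and a sum of 15.6, 16.7 and 16.8 CPM in KO replicates 1 to 3, against 20.8, 18.2 and 25.1 CPM in WT replicates 1 to 3. Of the 6 border macrophage genes, 4 were below 0 and 2 above (median −0.31). The part of fibroblasts and border macrophages in the vessel result was not tested. The choroid plexus list had 0 of 8 past edgeR's test (DESeq2 and limma-voom also 0; 1 had an unadjusted edgeR p under 0.05), with sums of 1366, 1072 and 1263 CPM in KO replicates 1 to 3, against 1071, 1315 and 1303 CPM in WT replicates 1 to 3, so the groups overlapped. Of 6 blood genes, 4 globin genes had 0 reads in all libraries and the other two, Alas2 (0.67, SE 0.34) and Slc4a1 (0.87, SE 0.58), did not pass by edgeR, DESeq2 or limma-voom; their sums were 23.4, 31.5 and 44.4 CPM in KO replicates 1 to 3, against 18.3, 27.1 and 10.5 CPM in WT replicates 1 to 3. Microglia had 1 of 6 higher (Cx3cr1, 0.51, SE 0.09), and astrocytes and Bergmann glia, whose endfeet cover brain vessels, had 3 of 8 higher, led by the potassium channel Kcnj10 (0.41, SE 0.08) and the glutamate carrier Slc1a2 (0.38, SE 0.09), 1 without KO replicate 1 or 3 or WT replicate 2. Aqp4, the water channel of those endfeet, was at −0.03 (SE 0.06, adjusted p = 0.786). The median was 0.15 over the microglia list and 0.06 over that of astrocytes and Bergmann glia, and 5 genes of each did not pass. Among neurons, granule cells had 1 of 6 lower (Gabra6, −0.66, SE 0.14; 4 lower by DESeq2 or without WT replicate 1, 0 without KO replicate 3 or WT replicate 3) and Purkinje cells 2 of 6 higher (Dner, 0.42, SE 0.08, and Calb1, 0.36, SE 0.08; 1 without KO replicate 1 or 3). All 6 granule genes lay below 0 (median −0.38), and 4 had an unadjusted edgeR p under 0.05. Over all tested genes, 7883 of 15519 lay below 0. The granule genes summed to 1391, 1039 and 1152 CPM in KO replicates 1 to 3. In WT replicates 1 to 3 the sums were 1273, 1662 and 1573 CPM, so the groups overlapped. The Purkinje list was split, with 3 genes below 0 and 3 above (median 0.10, lowest −0.66). Limma-voom, and edgeR without WT replicate 1, each called 1 Purkinje gene lower beside 2 higher. Of 8 retinal genes, 3 had enough reads and 0 passed, by edgeR, DESeq2 or limma-voom. Summed levels were 186, 188 and 198 CPM in KO replicates 1 to 3, against 182, 169 and 156 CPM in WT replicates 1 to 3 for microglia, and 7260.4, 6680.1 and 7358 CPM in KO replicates 1 to 3, against 6063, 6103 and 5869 CPM in WT replicates 1 to 3 for astroglia.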

How the data were processed

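RNA from 6 libraries of mouse cerebellum (3 KO, 3 WT) was sequenced; groups come from the sample titles. Each deposited file gives unnormalized counts for every gene, made with Trimmomatic and STAR on mm10, per the submitters' processing notes; versions: not given in the sources used here, nor are annotation and strand setting. The 4 summary lines were left out. Counts of the heavier strand (55.4 times the other) were used.

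Of 24411 genes, filterByExpr kept 15519. KO and WT were compared with edgeR 4.0.16 (R 4.3.3) by glmQLFit and glmQLFTest with robust estimation, TMM scaling and Benjamini-Hochberg adjustment over all tested genes, at a threshold of 0.05. SE is the absolute log2 fold change over the square root of F and is approximate, as are 95% intervals. CPM uses TMM-scaled library sizes. The edgeR p-values set the difference between KO and WT against the spread between these 3 libraries per group, moderated across all tested genes. Exon lengths and positions came from GENCODE M21 (GRCm38), promoters from RefSeq (GRCm38.p6; 25 of 40 genes matched). DESeq2 1.42.0 and limma 3.58.1 (voom with sample quality weights) were alternatives, beside other scaling, no filter, unstranded counts, removal of Rn45s, a replicate block and each library left out.

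The vessel genes and all lists were chosen with earlier results of these data known. Called vessel genes and a chosen group of 8 (Cldn5, Plvap, Slc2a1, Mfsd2a, Abcb1a, Lef1, Pdgfrb and Acta2) are given per library; of each list, up to 4 called genes of smallest p (up to 2 for other cell types) are named. Other named genes, and Bsg per library, were chosen after their values were seen. The edgeR fit was tested on simulated data.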

Additional observations from a re-analysis of the deposited data

How the results depend on the processing

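With 21 of the 40 vessel genes lower and 3 higher, the alternative scaling, DESeq2, limma-voom, no filter, unstranded counts and removal of Rn45s gave 18 to 23 lower and 3 higher. Leaving out 1 library gave 9 to 22 lower and 2 to 3 higher, and a median log2 fold change of −0.48 to −0.36 (−0.36 without WT replicate 1, −0.38 without WT replicate 3); limma-voom gave a median of −0.38. Over all tested genes, 796 to 2096 were lower and 245 to 1623 higher with 1 library left out, and limma-voom called 1695 higher, against 998. Replicate numbers did not pair the libraries (correlation of same-numbered deviations −0.18, −0.14 and −0.10), and with a replicate block 12 vessel genes were lower and 2 higher, and 821 and 252 of all tested genes. Slc2a1 turned to 0.0011 with RLE scaling, 0.0091 without the filter, 0.010 with unstranded counts, 0.0091 with DESeq2, and 0.052, 0.0097 and 0.053 without KO replicate 1, KO replicate 2 and WT replicate 1. Over all 6 removals Slc2a1 ranged from −0.069 to 0.053. Foxq1 turned to 0.0089 without WT replicate 1 and ranged from −0.39 to 0.0089. The cause of these shifts was not tested. WT replicate 3, with 6015125 reads on genes other than Rn45s, limits genes of few reads such as Higd1b, Tagln and Myh11.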
